A study of Mus musculus with 43 samples.

Results

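Astrocyte identity genes are genes whose RNA marks astrocytes among brain cells. The 10 described here, Aqp4, Slc1a2, Slc1a3, Gjb6, Gja1, Ntsr2, Aldh1l1, Kcnj10, Lfng and Fgfr3, are 10 of the 55804 gene rows in each of 2 expression tables. They were chosen because their levels with CDDO-2P-Im were below those with vehicle in these same data, so the values of that comparison are given as a description and no test of them is reported. All 10 genes had a mean of at least 1 TPM, the minimum for testing, in both tables.

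The study sequenced RNA of brain tissue from 2 Alzheimer's disease models after dosing with CDDO-2P-Im, an NRF2 inducer of the synthetic triterpenoid class. NRF2 is a transcription factor of antioxidant genes. Oral doses of 30 µmol/kg were given 3 times a week, over 4 weeks in the AppNLGF model and 2 weeks in the APP/TAU model, in a vehicle of 10% DMSO and 10% Cremophor EL in PBS. At 6 months of age there were 13 libraries of AppNLGF mice given CDDO-2P-Im, 11 of AppNLGF mice given vehicle and 4 of wild type mice given vehicle. At 11 months there were 5 libraries each of APP/TAU mice given CDDO-2P-Im, APP/TAU mice given vehicle and wild type mice given vehicle. In AppNLGF mice both copies of the mouse App gene hold the NL, G and F mutations, knocked in, with no transgene. APP/TAU mice carry transgenes with the V717I change in APP and the P301L change in TAU, and the labels used here do not give the promoters. No wild type mice received CDDO-2P-Im, so an action of the agent apart from the model could not be measured. Nothing in the labels says that libraries of a group come from separate animals, so p-values measure the spread between libraries, which may be technical.

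Astrocytes take up glutamate and potassium released by neurons, exchange water with the vessels through end feet wrapped around them, and are coupled to one another by gap junctions. These genes serve those tasks or mark the cell type. Whether they tell resting astrocytes from reactive ones, which raise Gfap, was not tested. In bulk tissue, fewer astrocytes and less RNA per astrocyte cannot be told apart.

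Levels are the deposited TPM (a length-corrected share of each library). Because TPM are shares, each comparison is also given after median-ratio scaling, which divides a library by its median ratio to the average library of the table. Differences are of log2(TPM + 1), with the standard error (SE) of the limma fit, and a gene is called where its limma p, adjusted by Benjamini-Hochberg over all genes tested, is below 0.05. A single RNA, ENSMUSG00000118866, took 28.3 to 40.0% of the TPM of the AppNLGF cohort libraries and 15.5 to 34.5% of those of the APP/TAU cohort. The labels give the tissue as brain with no region. A list of cerebellar markers averaged 5.81, 5.71 and 5.76 in the CDDO-2P-Im, vehicle and wild type groups of the APP/TAU cohort and 2.38, 2.49 and 2.55 in those of the AppNLGF cohort, on the scaled log2(TPM + 1) scale. A list of striatal markers ran the other way, at 3.13, 3.16 and 3.32 against 5.35, 5.34 and 5.53. The tables were normalised separately, so no level was tested between the cohorts.

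The promoters of 4 members are shown because the results below turn on how these genes varied: in the AppNLGF cohort Gja1 and Kcnj10 had low levels in the same treated libraries, and Lfng and Gjb6 had the largest differences with treatment. Each is the 250 bases before the RefSeq start of the gene on GRCm38.p6, written 5′ to 3′ on the strand of the gene. They lie at chr10:56377050-56377299 (Gja1, plus strand), chr1:172340960-172341209 (Kcnj10, plus strand), chr5:140607091-140607340 (Lfng, plus strand) and chr14:57133612-57133861 (Gjb6, minus strand). All 4 genes are protein coding, and the windows lie before the gene in GENCODE M21, except that of Lfng, which reaches into its first bases. Capitals mark 4 short motifs, searched on both strands: TGACNNNGC, the core of the antioxidant response element bound by NRF2; TTGGC, a core bound by NFI factors; ACAAT, a core bound by SOX factors; and TGGGAA, the core bound by RBPJ, the DNA-binding partner of Notch.
Gja1: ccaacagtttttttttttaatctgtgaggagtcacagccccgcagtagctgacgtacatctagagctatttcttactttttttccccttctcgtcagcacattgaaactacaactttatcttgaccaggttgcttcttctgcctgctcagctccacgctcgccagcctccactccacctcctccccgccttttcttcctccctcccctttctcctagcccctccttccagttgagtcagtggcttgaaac
Kcnj10: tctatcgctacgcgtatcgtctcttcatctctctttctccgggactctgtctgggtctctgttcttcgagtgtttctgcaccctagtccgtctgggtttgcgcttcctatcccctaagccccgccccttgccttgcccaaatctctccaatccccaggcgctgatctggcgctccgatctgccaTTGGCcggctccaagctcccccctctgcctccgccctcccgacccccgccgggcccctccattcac
Lfng: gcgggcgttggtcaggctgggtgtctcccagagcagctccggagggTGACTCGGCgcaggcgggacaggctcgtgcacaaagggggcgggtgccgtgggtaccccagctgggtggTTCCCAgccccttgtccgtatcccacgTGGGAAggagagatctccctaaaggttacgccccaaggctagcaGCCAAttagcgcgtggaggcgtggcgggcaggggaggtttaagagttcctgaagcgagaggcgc
Gjb6: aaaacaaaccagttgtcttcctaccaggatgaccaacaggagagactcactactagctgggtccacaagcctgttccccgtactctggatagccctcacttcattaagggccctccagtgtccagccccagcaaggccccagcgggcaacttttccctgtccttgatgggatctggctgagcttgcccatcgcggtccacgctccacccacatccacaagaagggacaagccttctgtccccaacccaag

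The Lfng window held TGACNNNGC at 204 bases before the start, TTGGC at 64 and TGGGAA at 135 and 108, and the Kcnj10 window held TTGGC at 66. The Gja1 and Gjb6 windows held none of these letters. RefSeq promoters were taken for 9 of the 10 members, with 2 windows for Fgfr3. Aqp4 is missing because member windows on chromosome 18, where it lies, were left out of the search. Whether Aqp4 has such a promoter is not given. Of these 10 windows, 2 held TGACNNNGC, 4 held TTGGC, 1 held ACAAT and 3 held TGGGAA. Among all 32851 RefSeq promoters of the same length the shares were 10.2%, 41.5%, 27.7% and 21.6%. A match describes the letters only and is not a measured binding site.

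Slc1a2, the glutamate transporter that clears most synaptic glutamate in the forebrain, had the highest level of the 10 and Lfng the lowest in every group. In the AppNLGF cohort Slc1a2 averaged 509 ± 64.4 TPM in CDDO-2P-Im libraries, 535 ± 43.1 TPM in AppNLGF vehicle libraries and 494 ± 10.3 TPM in wild type libraries (SD, n = 13, 11 and 4). Slc1a3, the second astrocytic glutamate transporter and the main one of Bergmann glia, averaged 97.9 ± 16.1, 102 ± 7.81 and 97.0 ± 5.96 TPM in the same groups. Gjb6, Aldh1l1 and Lfng had the lowest means of the CDDO-2P-Im group in the gene rows. Part of the RNA of some genes is listed apart, by transcript. With those rows added Gjb6 averaged 46.4 TPM in that group, above Fgfr3 (39.8 TPM), Kcnj10 (34.9 TPM) and Aqp4 (30.0 TPM).

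**Figure D1:**
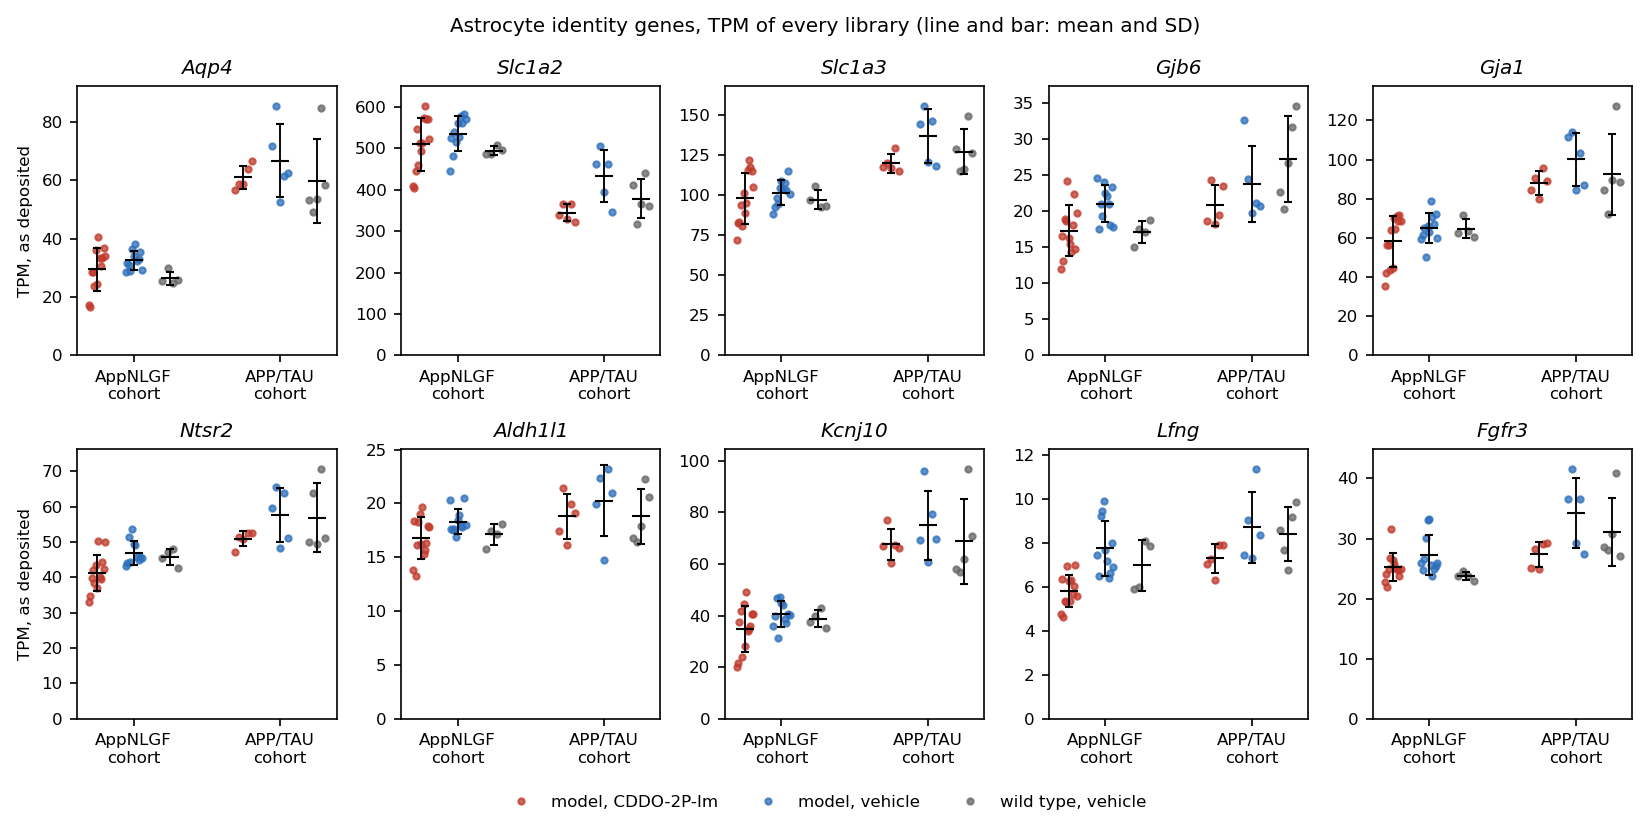
TPM of the 10 astrocyte identity genes in every library (points), with group means and SD, for the CDDO-2P-Im, vehicle and wild type groups of both cohorts. In the AppNLGF cohort the treated and vehicle groups overlapped for all 10 genes, and Lfng had the most treated libraries, 11 of 13, below every vehicle library.

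In AppNLGF mice all 10 genes were lower on average with CDDO-2P-Im than with vehicle, with differences of -0.066 (Slc1a3) to -0.36 (Lfng) on the log2 scale. The median difference was -0.18, beside -0.038 over all 16776 genes tested, of which 66.5% were below 0. After median-ratio scaling all 10 stayed below 0, with a median of -0.14 beside -0.0020 over all genes, of which 51.0% were below 0. The treated and vehicle ranges overlapped for all 10 genes as deposited, and did not for 0.00596% of all genes. Nothing is read from these counts, since this comparison chose the genes.

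Lfng, a glycosyltransferase that modifies Notch receptors and so changes which ligands they answer, had the largest difference. Its level ran from 4.64 to 6.99 TPM in CDDO-2P-Im libraries, with a median of 5.70, against 6.41 to 9.93 TPM in AppNLGF vehicle libraries, with a median of 7.47. The wild type libraries had 5.93, 6.02, 8.11 and 7.88 TPM. All 13 treated libraries lay below the vehicle median and 11 below every vehicle library, while the wild type libraries fell into a low and a high pair. The difference between CDDO-2P-Im and vehicle was -0.36 ± 0.075 (SE), and -0.32 ± 0.086 after scaling.

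Gap junction genes differed in size. Gjb6 encodes connexin Cx30 and had 12.0 to 24.3 TPM in CDDO-2P-Im libraries (median 16.6), 17.5 to 24.6 TPM in AppNLGF vehicle libraries (median 21.0) and 15.0, 17.5, 17.2 and 18.8 TPM in wild type libraries. Its treated range reached down below every vehicle library in 7 of 13 libraries while the tops of both ranges were close. The difference was -0.29 ± 0.089 and, scaled, -0.25 ± 0.093. Gja1 encodes Cx43, the major astrocytic connexin. It ran from 35.2 to 71.7 TPM in CDDO-2P-Im libraries (median 64.1), from 50.0 to 79.1 TPM in vehicle libraries (median 65.1), and was 62.5, 71.6, 63.7 and 60.6 TPM in wild type libraries. The medians of the treated and vehicle groups were close, 4 treated libraries lay below every vehicle library, and the difference of means was -0.18 ± 0.103 (scaled -0.14 ± 0.060).

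The end-foot genes spread more widely with CDDO-2P-Im than with vehicle as deposited, as did every other member but Lfng and Fgfr3. Kcnj10 encodes an inwardly rectifying potassium channel that buffers potassium. It ran from 20.2 to 49.3 TPM in CDDO-2P-Im libraries (median 35.9), against 31.1 to 47.4 TPM in AppNLGF vehicle libraries (median 40.3) and 37.4, 39.9, 43.0 and 35.2 TPM in wild type libraries. Aqp4, the water channel of the end feet, ran from 16.6 to 40.7 TPM with CDDO-2P-Im (median 30.5), 28.4 to 38.0 TPM with vehicle (median 32.3), and was 25.6, 29.7, 24.9 and 25.7 TPM in wild type libraries. Treated libraries spread both below and above the vehicle range for both genes. The differences were -0.25 ± 0.116 for Kcnj10 (scaled -0.21 ± 0.090) and -0.18 ± 0.111 for Aqp4 (scaled -0.13 ± 0.077).

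The same 4 treated libraries made up the low end of Gja1, Kcnj10 and Aqp4. CDDO-2P-Im libraries 1, 2, 5 and 7 had 35.2, 41.8, 43.7 and 44.7 TPM of Gja1, 20.2, 21.7, 24.1 and 28.3 TPM of Kcnj10, and 17.3, 16.6, 23.8 and 24.3 TPM of Aqp4. They also had the most of ENSMUSG00000118866 among treated libraries, at 40.0, 39.3, 39.7 and 37.2% of TPM, and vehicle library 4 had 38.0%. Scaling raised the 4 libraries, to 43.3, 50.0, 52.4 and 50.3 TPM of Gja1, and left them among the lowest. Without these 5 libraries the differences were -0.017 ± 0.057 for Gja1, -0.060 ± 0.067 for Kcnj10 and 0.023 ± 0.064 for Aqp4 (scaled -0.061 ± 0.041, -0.10 ± 0.082 and -0.021 ± 0.060). Those of Lfng and Gjb6 were -0.32 ± 0.082 and -0.25 ± 0.097 (scaled -0.36 ± 0.089 and -0.29 ± 0.105). Over the 10 genes the median was then -0.072 with 3 genes above 0, and -0.12 with none above 0 after scaling. The part of the abundant RNA in the difference was not tested.

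**Figure D2:**
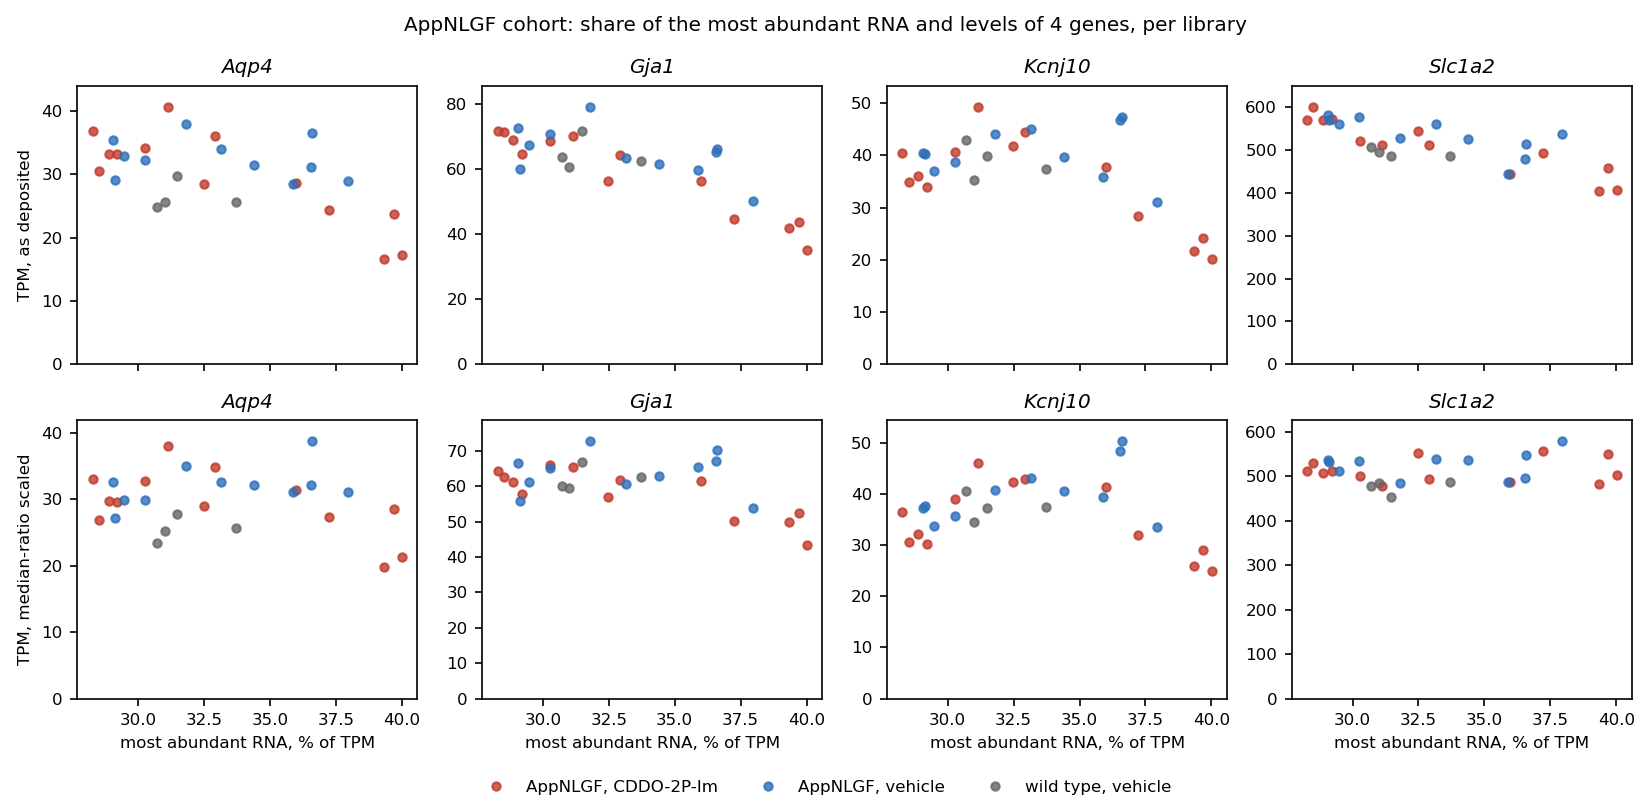
Level of 4 astrocyte genes (vertical axes, TPM as deposited in the upper panels and median-ratio scaled in the lower) against the share of TPM held by the most abundant RNA (horizontal axes, %), one point per AppNLGF cohort library. The 4 CDDO-2P-Im libraries above 37% were the lowest for Gja1 as deposited.

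The other 5 genes include 2 receptors, a folate enzyme and the glutamate transporters. Ntsr2, a neurotensin receptor used as an astrocyte marker, averaged 41.2 ± 5.12 TPM in CDDO-2P-Im libraries, 47.0 ± 3.36 TPM in AppNLGF vehicle libraries and 45.8 ± 2.36 TPM in wild type libraries; 9 of 13 treated libraries lay below every vehicle library, and the difference was -0.19 ± 0.057. Aldh1l1, which oxidises formyl-tetrahydrofolate, averaged 16.8 ± 1.95, 18.3 ± 1.15 and 17.1 ± 0.972 TPM, a difference with treatment of -0.13 ± 0.054. Fgfr3, a receptor for fibroblast growth factors, averaged 25.2 ± 2.34, 27.2 ± 3.32 and 23.8 ± 0.660 TPM, a difference of -0.10 ± 0.056. For the glutamate transporters the differences were -0.079 ± 0.061 (Slc1a2) and -0.066 ± 0.073 (Slc1a3), close to their errors.

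The difference also depended on the replicate numbers, whose meaning the labels do not give. Among libraries numbered 1 to 5 the median over the 10 genes was -0.35 and all were below 0, and among those numbered 6 and above it was -0.089 with 9 below 0. Scaled, the medians were -0.24 and -0.070, with 10 and 8 genes below 0. Lfng differed by -0.59 ± 0.121 in the low-numbered libraries and -0.19 ± 0.067 in the others. With only libraries at or under 10 TPM of Xist the median was -0.22 with 10 below 0. Xist passed that level in 7 of 13 CDDO-2P-Im, 5 of 11 vehicle and 0 of 4 wild type libraries. The labels used here do not give sex. Every comparison of an AppNLGF group with wild type therefore has libraries with Xist on the AppNLGF side only. At or under 10 TPM of Xist, AppNLGF vehicle was above wild type for 9 of 10 genes (median 0.077). CDDO-2P-Im was above wild type for 4 of 10 (median -0.064). The part of sex in these differences was not tested.

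In APP/TAU mice the sign of the treatment difference depended on the scale. As deposited all 10 genes were lower with CDDO-2P-Im than with vehicle, with a median of -0.17, but the median of all 17592 genes was -0.19 and 90.1% of them were below 0. After scaling 7 of the 10 were above 0, with a median of 0.046 beside 0.0022 over all genes, of which 48.9% were below 0. No gene of the table was called as deposited (0%; 26.8% at an unadjusted p below 0.05), and 2 were called after scaling (0.0114%; 8.84% at an unadjusted p below 0.05). Without the 2 vehicle libraries poor in the most abundant RNA the deposited median of the 10 genes was -0.081, with 2 above 0. The most abundant RNA took 27.9 to 31.2% of TPM in the CDDO-2P-Im libraries, 15.5 to 29.1% in the vehicle libraries and 24.9 to 34.5% in the wild type libraries.

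Slc1a2 and Fgfr3 had the largest deposited differences in this cohort. Slc1a2 had 339, 366, 330, 365 and 322 TPM in CDDO-2P-Im libraries, 461, 505, 395, 461 and 345 TPM in APP/TAU vehicle libraries and 410, 316, 366, 440 and 360 TPM in wild type libraries. After scaling it had 363, 363, 371, 358 and 354 with CDDO-2P-Im, 405, 396, 403, 379 and 354 with vehicle and 421, 388, 395, 380 and 375 in wild type. The scaled treated libraries all lay below the 5 wild type libraries and overlapped the vehicle range through vehicle library 5. Its treatment difference was -0.32 ± 0.107 as deposited and -0.096 ± 0.041 scaled.

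Fgfr3 had 25.2, 28.3, 25.0, 29.1 and 29.3 TPM in CDDO-2P-Im libraries, 36.5, 41.5, 29.2, 36.6 and 27.5 TPM in vehicle libraries and 28.6, 28.1, 30.7, 40.9 and 27.0 TPM in wild type libraries, with a treatment difference of -0.30 ± 0.124 (scaled -0.084 ± 0.066). Lfng, the largest in AppNLGF mice, had 7.06, 7.27, 6.33, 7.91 and 7.93 TPM with CDDO-2P-Im, 7.45, 9.04, 7.34, 11.4 and 8.38 TPM with vehicle and 8.59, 7.68, 6.79, 9.17 and 9.89 TPM in wild type. The treated and vehicle groups overlapped for both genes, and the Lfng difference was -0.22 ± 0.117 as deposited and -0.016 ± 0.096 scaled. The end-foot genes changed sign: Kcnj10 was -0.13 ± 0.142 and scaled 0.089 ± 0.081, and Aqp4 was -0.11 ± 0.140 and scaled 0.11 ± 0.091.

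**Figure D3:**
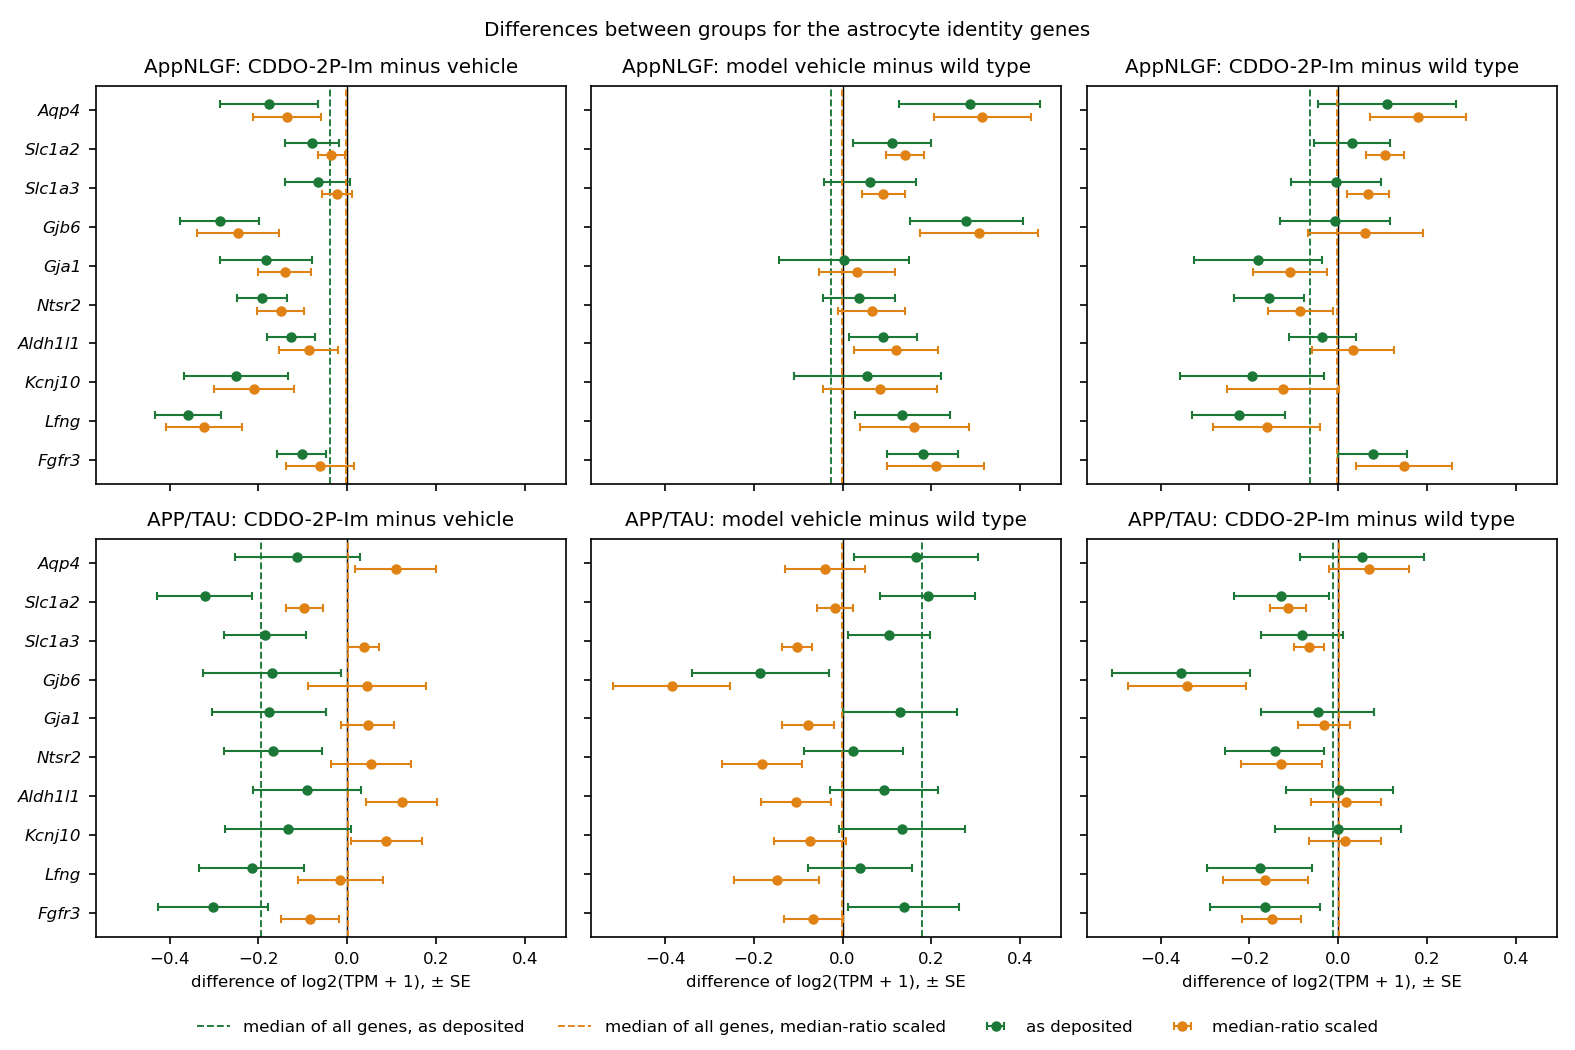
Differences of log2(TPM + 1) with SE for the 10 genes in each comparison, as deposited and after median-ratio scaling, with the median of all genes as dashed lines. In AppNLGF mice the treated minus vehicle differences lay below 0 on both scales, and in APP/TAU mice 7 of 10 crossed to above 0 with scaling.

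Against wild type the AppNLGF vehicle group was higher on average for all 10 genes on both scales, where 61.7% of all genes were below 0 (50.5% scaled). On deposited values that direction depended on the fit. With the replicate number as a block 5 of 10 were above 0 (median 0.010, against 0.10 without it). Among libraries numbered 1 to 5 there were 8 of 10, and Gja1 changed sign in 8 of 28 fits with a library left out. After scaling 9 of 10 were above 0 with the block (median 0.15) and 10 of 10 among libraries numbered 1 to 5 (median 0.18). None of the 10 was called by limma (background 0.280% of genes, scaled 0.691%). The AppNLGF vehicle libraries also enter the comparison that chose the genes. That choice favours genes high in these libraries, so the counts of this comparison are not free of it. At an unadjusted p below 0.05 there were 2 members, and 3 after scaling, beside 4.16% and 7.05% of all genes. Aqp4 differed by 0.29 ± 0.159, with 8 of 11 AppNLGF vehicle libraries above all 4 wild type libraries, and by 0.31 ± 0.110 scaled (limma adjusted p 0.371), with 10 of 11 above. Slc1a2 differed by 0.11 ± 0.087 and 0.14 ± 0.043 scaled (adjusted p 0.215), with 10 of 11 above after scaling. Gjb6 differed by 0.28 ± 0.127, and by 0.31 ± 0.132 scaled (adjusted p 0.617), and Gja1 by 0.0027 and 0.032. In the same comparison Gfap, the intermediate filament of reactive astrocytes, was called higher: it averaged 132 ± 36.6 TPM in CDDO-2P-Im libraries, 138 ± 20.8 TPM in AppNLGF vehicle libraries and 45.3 ± 6.09 TPM in wild type libraries. Of 13 tested reactive astrocyte genes 3 were called higher (Gfap, Serpina3n and C4b), and 0 of 13 with treatment.

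AppNLGF CDDO-2P-Im libraries against wild type gave 7 of 10 differences below 0 as deposited and 4 of 10 scaled, beside 70.0% and 51.0% of all genes, with no member called by limma (background 0.262% and 0.715%). At an unadjusted p below 0.05 there was 1 member on each scale, beside 7.73% and 11.6% of all genes. These share the treated libraries with the comparison that chose the genes, and that choice favours genes low in them. Lfng differed by -0.22 ± 0.104 (limma adjusted p 0.644) and Ntsr2 by -0.16 ± 0.080 (adjusted p 0.658). Slc1a2 was 0.11 ± 0.042 above wild type after scaling (adjusted p 0.317), with 11 of 13 libraries above every wild type library, and 0.032 as deposited. With the replicate number as a block Ntsr2 was called lower (limma adjusted p 0.0406), in a fit that called 19.2% of all genes. Among libraries numbered 1 to 5 as deposited 3 members were called lower by limma, Gja1 (adjusted p 0.0157), Ntsr2 (0.0222) and Slc1a3 (0.0254), where 31.7% of all genes were called, and none after scaling. Neither count stands apart from the share of all genes.

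In the APP/TAU cohort the vehicle group was above wild type for 9 of 10 genes as deposited, with a median of 0.12 beside 0.18 over all genes, where 9.95% of all genes were below 0. Without the 2 vehicle libraries poor in the most abundant RNA 5 of 10 were below 0, with a median of -0.0086. After scaling it was below wild type for all 10, with a median of -0.090 beside -0.0024 over all genes, of which 50.8% were below 0. No member was called on either scale by limma (background 0.0227% and 0.0284%), and 0 and 2 members had an unadjusted p below 0.05, beside 23.8% and 14.2% of all genes. Both APP/TAU groups enter the comparison that chose the genes, so the counts against wild type are not free of that choice. CDDO-2P-Im mice were below wild type for 7 of 10 genes on both scales, beside 54.6% and 49.2% of all genes. No member was called there (background 0.0227% and 0.0284%), and 1 and 3 members had an unadjusted p below 0.05, beside 2.16% and 7.83% of all genes. Gjb6 had 20.0, 24.1, 20.5, 19.1 and 25.8 scaled TPM with CDDO-2P-Im, 28.7, 19.2, 20.2, 17.4 and 21.3 with vehicle, and 23.3, 24.9, 28.9, 27.5 and 36.1 in wild type. The wild type libraries were the highest on average, and both APP/TAU groups overlapped them. Gjb6 differed from wild type by -0.34 ± 0.133 in CDDO-2P-Im mice (limma adjusted p 0.575) and by -0.39 ± 0.133 in vehicle mice (adjusted p 0.237). Slc1a2 in CDDO-2P-Im mice differed from wild type by -0.11 ± 0.041 after scaling (adjusted p 0.547). The 5 treated and 5 wild type libraries did not overlap for it, as for 1.69% of all genes. As deposited they overlapped, with a difference of -0.13.

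Most other astrocyte genes were also lower on average with CDDO-2P-Im in AppNLGF mice. Of 66 other astrocyte identity genes, all tested in both tables, 57 were below 0 with treatment, beside 66.5% of all genes. After scaling 54 were, beside 51.0% of all genes. The median of the 66 was -0.11, and -0.068 after scaling. None of the 66 was called by limma on either scale (background 0.0536%, scaled 0.286%). At an unadjusted p below 0.05, 18 were lower on each scale, beside 3.97% of all genes (5.94% scaled). The smallest p belonged to Ttyh1, a chloride channel family member, at -0.21 ± 0.05 (limma adjusted p 0.171; scaled -0.17, 0.0592), and Etnppl and Sdc4 differed by -0.38 ± 0.11 and -0.26 ± 0.08. In APP/TAU mice 64 of 66 were below 0 as deposited (median -0.19), beside 90.1% of all genes (median -0.19). After scaling 48 of 66 were above 0 (median 0.017), where 48.9% of all genes were below 0 (median 0.0022). None of the 66 was called. This list was drawn up with earlier results of these data known and is counted in the comparison that chose the members. Its counts are therefore a description, not a separate test.

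By role, in lists without the 10 members, the end-foot list held 11 tested genes of 12 in AppNLGF mice, with 11 below 0 and a median treatment difference of -0.13 (scaled -0.088). The median was -0.054 for 12 glutamate handling genes, where Glul, the glutamine synthetase, differed by -0.21 ± 0.07 (limma adjusted p 0.583; scaled -0.16, 0.0727). It was -0.050 for 8 of 9 connexin genes, where Gjb2 differed by -0.27 ± 0.12. It was 0.012 for 16 of 17 Notch pathway genes, -0.056 for 13 of 15 fibroblast growth factor pathway genes and 0.0050 for 10 of 13 folate genes. In APP/TAU mice Dusp6 of the growth factor list, a phosphatase induced by fibroblast growth factor signals, had 13.8 ± 1.34 TPM with CDDO-2P-Im, 20.7 ± 3.18 TPM with vehicle and 18.0 ± 3.30 TPM in wild type (SD, n = 5 each), a difference with treatment of -0.54 ± 0.13 (limma adjusted p 0.167; scaled -0.33 ± 0.08, 0.343). In AppNLGF mice Dusp6 had 22.6 ± 5.60 TPM with CDDO-2P-Im, 18.3 ± 3.10 TPM with vehicle and 23.9 ± 3.61 TPM in wild type, a difference with treatment of 0.26 ± 0.12 (limma adjusted p 0.778; scaled 0.30 ± 0.09, 0.118).

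Markers of other cells were compared in the AppNLGF cohort, where 66.5% of all genes were below 0 with a median of -0.038. All 12 endothelial markers were above 0 with CDDO-2P-Im against vehicle, with a median of 0.093 (scaled 0.13) and none called by limma, 4 at an unadjusted p below 0.05 after scaling, beside 12.5% of all genes. Their mean scaled level per library ran from 2.69 to 2.97 with CDDO-2P-Im, 2.58 to 2.80 with vehicle and 2.48 to 2.60 in wild type, on the log2(TPM + 1) scale. The mean of the 10 astrocyte genes ran from 5.13 to 5.44, 5.26 to 5.66 and 5.26 to 5.28 in the same groups. Of the thalamic and hypothalamic markers 10 of 11 were below 0, with a median of -0.21 (scaled -0.17), and their mean level ran from 1.68 to 3.80 with CDDO-2P-Im, 1.55 to 4.28 with vehicle and 2.17 to 3.72 in wild type. As deposited, 10 of 12 microglial markers were below 0 (median -0.12), 8 of 9 of choroid plexus (-0.12), 7 of 7 of cerebellum (-0.092), 8 of 10 of striatum (-0.044), 12 of 14 of neurons (-0.061), 7 of 10 of oligodendrocyte precursors (-0.054), 7 of 12 of oligodendrocytes (-0.012) and 7 of 13 of reactive astrocytes (-0.0060). None of these markers was called by limma, and 2 oligodendrocyte markers were higher and 2 precursor and 1 microglial markers lower at an unadjusted p below 0.05, beside 6.18% of all genes. The part of these cells' RNA in the astrocyte differences was not tested.

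Pooled over the 3 groups of a cohort, the 10 genes did not vary as one between libraries. Over the 28 AppNLGF cohort libraries, with group means removed from the scaled values, 13 of the 45 pairs passed an adjusted permutation p of 0.05 and 30 were positive. Points share library composition and depth. The share of passing pairs among all genes was not measured in either cohort, so the counts are not read as particular to these genes. Aqp4 and Gja1 went together most closely (Pearson r 0.79, Spearman rho 0.76, permutation p 1e-05, the smallest 100000 resamples can give, adjusted 0.000225), and r was 0.70 without the 2 libraries farthest from the median of Aqp4. Aqp4 and Kcnj10 had r 0.78 and rho 0.68 (adjusted permutation p 0.000225), and 0.69 without the 2 farthest. Gja1 and Kcnj10 had r 0.68 and rho 0.63 (adjusted permutation p 0.000562), and 0.57 without the 2 farthest. Without the 5 libraries rich in ENSMUSG00000118866 the 3 values were 0.70, 0.65 and 0.32, so the last rests largely on those libraries. Some other pairs also depended on the libraries taken. Kcnj10 and Fgfr3 had r 0.052 over all 28, 0.70 without the 5, -0.23 within treated and 0.51 within vehicle libraries. Aqp4 and Ntsr2 had 0.37, 0.65, 0.27 and 0.69 in the same order. Slc1a2 and Gja1 stayed below 0, at -0.39, -0.47, -0.26 and -0.59.

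Another 9 pairs past the threshold were among Lfng, Fgfr3, Ntsr2, Gjb6 and Aldh1l1, and 1 joined Ntsr2 and Kcnj10 (r 0.55, adjusted permutation p 0.0107; r 0.89 without the 5 libraries). Lfng and Fgfr3 had r 0.71 and rho 0.67 (adjusted permutation p 0.0003), 0.60 without the 2 farthest, 0.68 within treated and 0.85 within vehicle libraries. Ntsr2 and Fgfr3 had r 0.63 and rho 0.66 (adjusted permutation p 0.00285). Gja1 and Fgfr3 leaned the other way, with r -0.40 (adjusted permutation p 0.0995), and r was 0.093 without the 5 libraries. In the 15 APP/TAU cohort libraries 2 of 45 pairs passed. Aqp4 and Gja1 had r 0.74 and rho 0.71 (adjusted permutation p 0.0286), and r was 0.54 without the 2 farthest. Slc1a2 and Aldh1l1 had r -0.86 and rho -0.84 (adjusted permutation p 0.0036), -0.75 without the 2 farthest, and r was -0.035 in the AppNLGF cohort. Lfng and Fgfr3 had r -0.34 in the APP/TAU cohort (adjusted permutation p 0.55), and -0.14 without the 2 farthest.

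**Figure D4:**
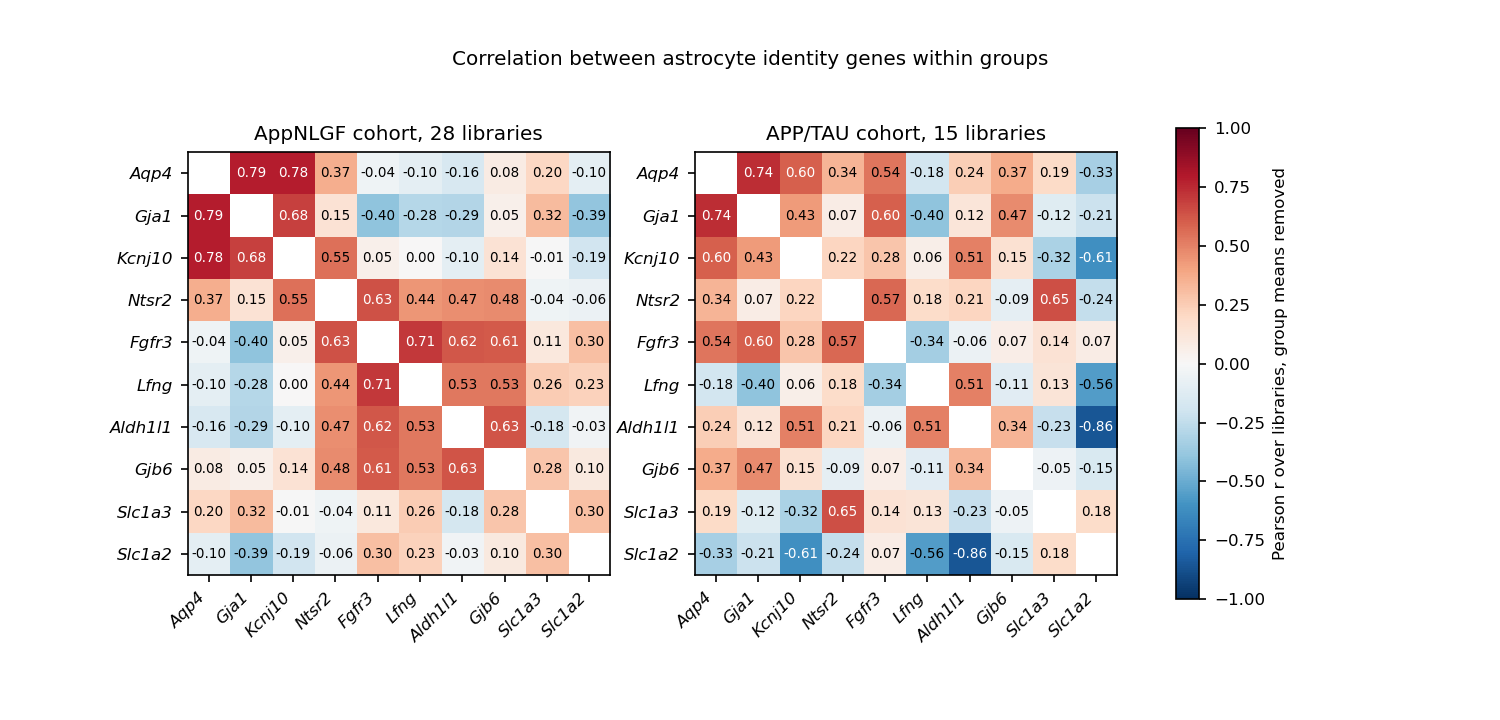
Pearson r between each pair of astrocyte identity genes over libraries of the AppNLGF (28) and APP/TAU (15) cohorts, median-ratio scaled with group means removed. Pearson r among Aqp4, Gja1 and Kcnj10 was above 0 in both cohorts, and that of Lfng with Fgfr3 was above 0 in the AppNLGF cohort only. Of these pairs only Aqp4 with Gja1 passed in the APP/TAU cohort. The adjusted permutation p there was 0.133 for Aqp4 with Kcnj10, 0.393 for Gja1 with Kcnj10 and 0.55 for Lfng with Fgfr3.

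The 6 genes outside the list whose scaled values followed the mean of the 10 most closely in both cohorts, of 12341 ranked by the lower of their 2 correlations, were Selenop (r 0.84 in the AppNLGF cohort and 0.84 in the APP/TAU cohort), Aldoc (0.77 and 0.89), Otud7b (0.76 and 0.83), S100b (0.75 and 0.82), Aldh1a1 (0.78 and 0.74) and Acsbg1 (0.74 and 0.83). They were chosen by these values, so no p is given. Aldoc and Acsbg1 are on the list of other astrocyte genes. None was called with treatment by limma (smallest adjusted p 0.168, for Otud7b in APP/TAU mice).

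The AppNLGF table also lists single transcripts beside gene rows, and part of a gene's RNA stands there. Of the members' transcripts 46 are listed: 18 protein coding, 15 with a retained intron, 12 processed and 1 marked for nonsense-mediated decay. They held 60.3, 59.4 and 60.9% of the summed TPM of Gjb6 in the CDDO-2P-Im, vehicle and wild type groups and 35.8, 39.8 and 37.0% of that of Fgfr3. They held 15.9, 17.0 and 6.63% for Lfng and 1.32, 2.03 and 1.55% for Gja1, and no Kcnj10 transcript was listed. Summing both kinds of rows left all 10 treatment differences below 0, with a median of -0.18 (scaled -0.16).

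**Figure D5:**
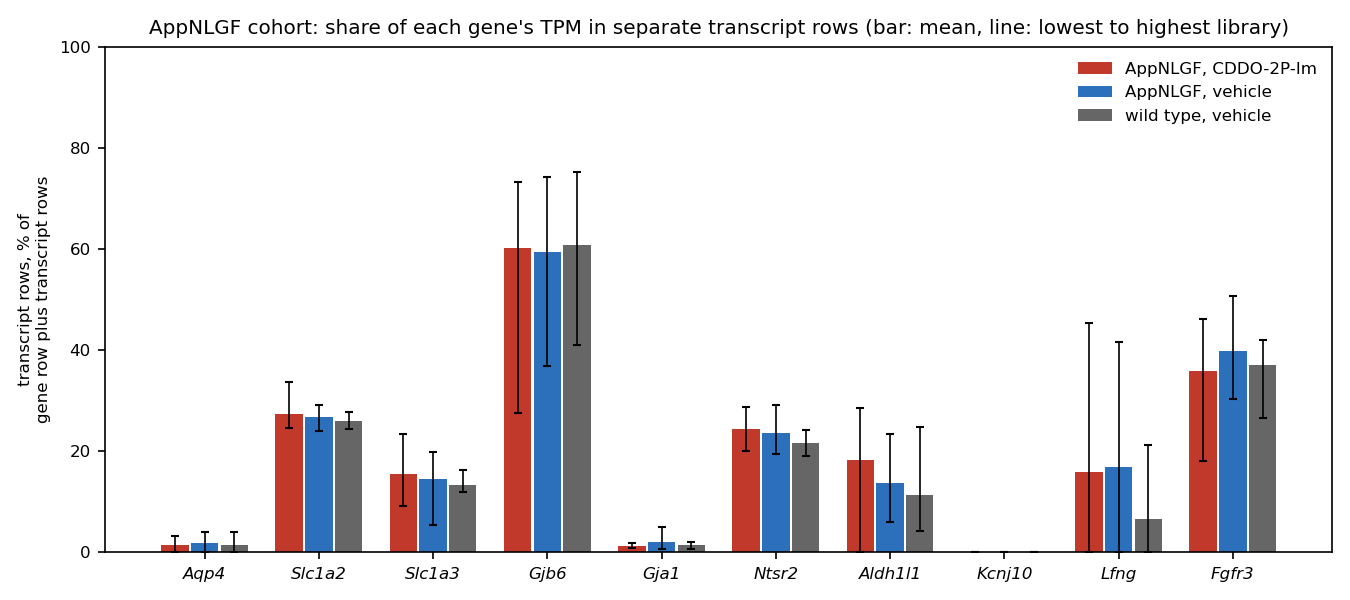
Share of each gene's TPM held by separate transcript rows (vertical axis, %) in the 3 AppNLGF cohort groups, with bars for group means and lines from the lowest to the highest library. Gjb6 had the largest share, close to 60% in each group, and Kcnj10 had none.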

How the data were processed

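The submitters' processing notes name Salmon and the builds GRCm38 and mm10. No version of Salmon and no annotation release is given in the sources used here. TPM are the authors' values, as deposited, with a table for each cohort and a column for each library. TPM keep no depth, so the number of reads behind a value is unknown and no counting interval is given. Gene rows held 88.5 to 91.4% of the total in AppNLGF cohort libraries and 84.9 to 90.8% in APP/TAU cohort libraries, and a mouse symbol was matched for 51327 of 55804 gene rows. Groups came from the titles.

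Genes averaging 1 TPM or more over a table were tested (16776 for AppNLGF, 17592 for APP/TAU) as log2(TPM + 1), which understates changes of genes with low TPM. limma 3.58.1 in R 4.3.3 (data.table, version 1.17.8) fitted 1 mean per group over all 3 groups of a table, with moderation by a trend and two-sided tests, and p was adjusted over all tested genes (Benjamini-Hochberg, 0.05). Errors of TPM are SD. Correlations used 100000 permutations, adjusted over 45 pairs. Promoters are from RefSeq on GRCm38.p6, and transcripts were matched to genes by GENCODE M21. The fit was also run on simulated data in which each gene was drawn independently. Those data held no shift of library composition, so they do not bear on such shifts here.

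The members and the 18 gene lists (262 genes) were chosen with earlier results of these data known. Named were all members, up to 4 genes of each list with the smallest p with treatment and any called, the 6 genes most like the members, and up to 2 of the most abundant genes of each cell type list; Gjb2, Glul and Dusp6 come from the role lists, and 1 gene that the rule names is not reported here. Alternatives were median-ratio scaling, a pseudocount of 0.1, no filter, the replicate number as a block, and each library left out. Added after seeing the data were fits without libraries over 37% (AppNLGF) or under 20% (APP/TAU) of the abundant RNA, by Xist, by replicate number, and with transcript rows summed.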

Additional observations from a re-analysis of the deposited data

Results flagged for a closer look

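Each gene was looked at in each group of 4 or 5 libraries, which gave 40 sets of values. In 3 of the 40 sets 1 library lay far from the rest, where chance gives about 1 in 20 for separate sets. These sets share libraries, so they are not separate and that rate is only a rough guide. Aqp4 stood at 29.7 TPM in wild type library 2 of the AppNLGF cohort, against 24.9 to 25.7 TPM in the other 3. In wild type library 4 of the APP/TAU cohort Aqp4 stood at 84.6 TPM and Fgfr3 at 40.9 TPM, above the other 4 wild type libraries. That library had the lowest share of the most abundant RNA among the wild type libraries, 24.9%, and its scaled values were 73.1 for Aqp4 and 35.4 for Fgfr3. The part of that share was not tested.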

How the results depend on the processing

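The median treatment difference over the 10 genes in AppNLGF mice, -0.18, was -0.072 without libraries rich in the most abundant RNA, -0.35 with libraries numbered 1 to 5, -0.089 with those numbered 6 and above and -0.070 with those numbered 6 and above after scaling. In APP/TAU mice it was -0.17 as deposited, -0.081 without the libraries poor in that RNA, 0.046 scaled, 0.046 scaled with the replicate block and 0.026 scaled without those libraries. Leaving out each library in turn gave -0.21 to -0.12 and -0.23 to -0.13 in the 2 models, changed the sign of no member's treatment difference, and left 0 members called in the 4 comparisons with wild type.

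Counts of all genes called moved more. In AppNLGF mice 9 genes were called with treatment, 48 scaled, 4 with the replicate block, 18 with both, 28 without extreme libraries, 34 with that and scaling and 53 scaled with summed transcript rows. Left-out libraries gave 5 (without vehicle 3 or treated 11) to 15 (without treated 5), with 14 without treated 6. For AppNLGF vehicle against wild type 47 genes were called, 116 scaled, 29 with the block, 82 without extreme libraries, 126 with that and scaling, 96 scaled with summed rows, 18 with Xist at or under 10 TPM, and 29 (without wild type 1) to 56 with a library left out. For CDDO-2P-Im against wild type 44 were called, 120 scaled, 3222 with the block, 99 without extreme libraries, 138 with that and scaling, 131 scaled with summed rows, 2 with Xist at or under 10 TPM, and 17 (without wild type 1 or 4; 22 without wild type 2) to 48 with a library left out. The block called 1 member there. Of the other astrocyte genes 2 were called scaled and 1 scaled without extreme libraries for AppNLGF vehicle against wild type, and with treatment 0 to 1 (Ttyh1, limma adjusted p 0.0453, without treated 10).

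In APP/TAU mice treatment called 0 genes, 2 scaled, 2 scaled with the block, 1 scaled without extreme libraries and 0 to 2 with a library left out (2 without vehicle 5, 1 without treated 3 or 5). Vehicle against wild type called 4 to 8 (8 without vehicle 3, 7 without vehicle 5), and CDDO-2P-Im against wild type 4 to 6. The cause of these shifts was not tested. Deviations of same-numbered libraries were weakly correlated, at -0.02 to 0.12 over 11 treated and vehicle pairs of the AppNLGF cohort. The numbers are therefore not taken as pairs. The share of ENSMUSG00000118866 still went with the number. In vehicle libraries it was 34.4 to 38.0% for those numbered 1 to 5 and 29.1 to 33.1% for the others. In treated libraries it was 32.5 to 40.0% and 28.3 to 37.2%. What the numbers mark was not tested, and no wild type library there is numbered above 4. Depth is unknown and limits what can be said of Lfng, the gene with the lowest TPM.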

Other observations

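Slc14a1, a urea transporter on the list of other astrocyte genes, was higher in both AppNLGF groups than in wild type after scaling. Its difference was 0.62 ± 0.115 with CDDO-2P-Im (limma adjusted p 0.00273) and 0.48 ± 0.12 with vehicle (adjusted p 0.0473). As deposited the CDDO-2P-Im difference was 0.57 ± 0.164 (adjusted p 0.277). Cst3, the cystatin C gene, was higher in AppNLGF vehicle than in wild type after scaling, by 0.16 ± 0.04 (adjusted p 0.0237), and by 0.094 ± 0.035 with CDDO-2P-Im (adjusted p 0.261). For AppNLGF vehicle against wild type 0 genes of that list were called as deposited, 2 scaled and 1 scaled without extreme libraries. Scaled, 0.691% of all genes were called there, and 0.715% for CDDO-2P-Im against wild type. Libraries over 10 TPM of Xist were on the AppNLGF side only.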
